A study of Homo sapiens with 3 samples.

Results

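ES27L is the long expansion segment of 28S ribosomal RNA. It was taken as the bases between positions 2888 and 3585 of the 28S sequence, both excluded. The range is set by position and not by depth, but it was chosen with earlier results of these data known. The segment comprised 696 positions of the 7218 in the table and made up 13.7% of the 5070 nt of 28S. Every position had a value in each of the 3 libraries, and none was removed by a filter. The data were eCLIP read depths at each position of the mature rRNAs in the embryonic kidney line 293T, which is of human origin. In eCLIP, RNA is crosslinked to protein with UV light (here 254 nm, 400 mJ/cm2), the protein is immunoprecipitated, and the attached RNA is sequenced. The 2 eCLIP libraries came from cells that stably express METTL5 with an HA tag and were pulled down through that tag. The 1 Input library was labelled wild type, and all 3 libraries came from crosslinked cells. The Input therefore differed from the eCLIP libraries in genotype as well as in pulldown, and the 2 differences cannot be told apart. The sources used here do not say which promoter drives METTL5-HA or whether the line is a single clone. No untagged pulldown was analysed here.

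Expansion segments are stretches of rRNA that eukaryotes carry in addition to the core shared with bacteria. ES27L is inserted in domain IV of the large-subunit rRNA and is rich in G and C. It is mobile: structures of yeast ribosomes show it in more than 1 orientation, in some of them near the exit of the peptide tunnel. In yeast it is known as a docking site for enzymes that process the start of new proteins, such as the N-terminal acetyltransferase NatA, and in mammals it is contacted by EBP1, a protein of the methionine aminopeptidase fold. METTL5 is the methyltransferase that places N6-methyladenosine on 18S, the rRNA of the small subunit, and ES27L lies on the other subunit. The name ES27L rests on the position range alone. No rRNA sequence was used here, so its GC content and edges were not checked.

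The rRNA genes are near-identical copies, and counts cannot be assigned to 1 of them. Of 5 annotated copies of 28S, RNA28SN5 had the table's length of 5070 nt, and the others had 5054 to 5077 nt. The segment lies inside the mature, non-coding 28S transcript. Genome coordinates are not given, because the annotation is on another build than the one the submitters name.

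As a whole, ES27L took about the same part of 28S depth in eCLIP as in Input. Replicate 1 of eCLIP had 12.3% of its summed 28S depth there (exact 95% binomial interval 12.1% to 12.4%), replicate 2 had 12.8% (12.5% to 13.0%), and Input had 13.1% (13.0% to 13.2%). The intervals treat summed depth divided by 75, the span taken for a read, as the number of reads: 27393, 11383 and 54052 on the segment. They cover counting error only, and they are too narrow if reads are PCR copies. On the log2 scale the eCLIP share over the Input share came to -0.09 and -0.04 for the 2 replicates (mean -0.06 ± 0.039, SD, n = 2). Tested as 1 window and scaled to the rest of 28S, the segment had an edgeR log2 fold change of -0.07 (edgeR quasi-likelihood test, adjusted p = 0.885). With 1 Input library, the share itself has no replicate check.

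The mean over ES27L was 2952 reads per position for eCLIP replicate 1, 1227 for replicate 2 and 5825 for Input. At the other 4374 positions of 28S it was 3358, 1335 and 6163. The segment was therefore covered at 0.879, 0.919 and 0.945 times the mean of the other 28S positions of the same library. The median position stood lower in eCLIP: it was 0.682 times the median of the other positions in replicate 1 and 0.815 times in replicate 2, against 1.02 times in Input. Depth in eCLIP was concentrated in a fraction of the segment's length. Depth ranged from 861 to 7373 reads in replicate 1 and from 217 to 4329 in replicate 2, an 8.56-fold and a 19.9-fold range, against 2515 to 6800 in Input, a 2.70-fold range. The other 28S positions varied as much in eCLIP. The SD across positions divided by their mean was 0.634 and 0.874 on ES27L, and 0.577 and 0.978 elsewhere on 28S. It was 0.185 on both in Input.

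**Figure D1:**
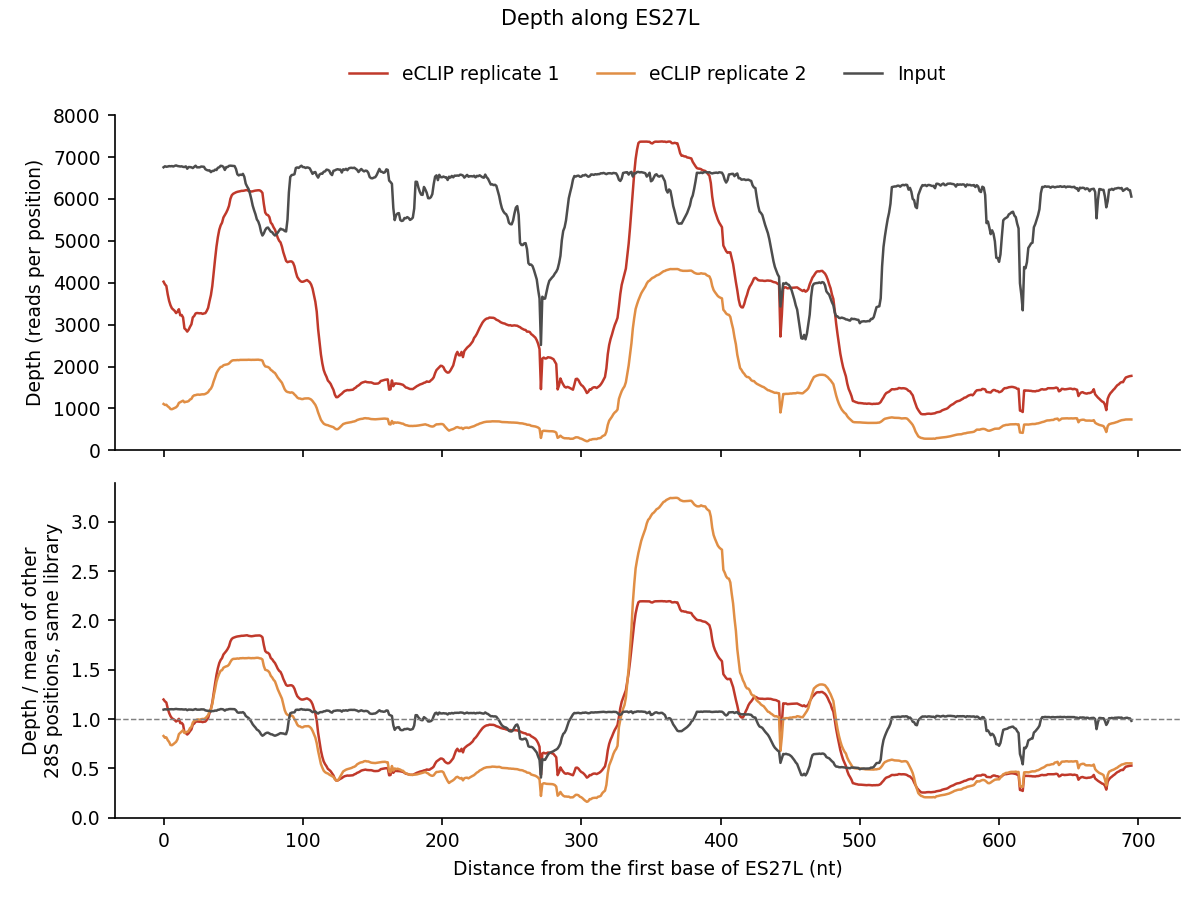
Depth at each of the 696 positions of ES27L in the 3 libraries, as reads per position (top) and divided by the mean of the other 28S positions of the same library (bottom, dashed line at 1), against distance in nt from the first base of the segment. Both eCLIP libraries have a tall peak near the middle with summits of 7373 and 4329 reads and a smaller one near the 5′ end with 6211 and 2165, while Input stays between 2515 and 6800.

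Input depth on the segment kept further from the top of the table's range than on the rest of 28S. No position of any rRNA reached 8000 reads in any library, and the Input maximum was 6800 on ES27L and 7986 elsewhere on 28S. The eCLIP maxima elsewhere on 28S were close to that, 7465 in replicate 1 and 7672 in replicate 2. Summed depth, in contrast, was 17574237 and 6930845 in the eCLIP libraries and 42783485 in Input. On ES27L, 88.4% of Input positions had 4000 reads or more, against 96.0% elsewhere on 28S, and the corresponding figures were 26.4% and 40.8% in eCLIP replicate 1 and 6.61% and 4.53% in replicate 2. At the top of the peak in replicate 1, depth stayed between 7324 and 7373 over the 29 positions from 3230 to 3258. Replicate 2 had a narrower top, with 12 positions from 3250 to 3261 within 1% of its summit. Whether recorded depth was limited there or in Input was not tested.

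Along the segment, eCLIP depth formed 4 stretches that were alike in both libraries: high, low, high, low. These stretches were drawn after the values were seen, and their ratios are a description. Over the first 100 nt, up to position 2988, the eCLIP libraries averaged 4678 and 1636 reads and Input 6329. From 2989 to 3188 the averages were 2153 and 625 against 6016. From 3189 to 3388 they were 4491 and 2249 against 5469, and from 3389 to the end of the segment they were 1316 and 589 against 5735. Recorded Input depth thus changed little from stretch to stretch, while eCLIP depth changed by more than 3-fold between the third and the fourth. Whether a limit on recorded depth kept Input even was not tested.

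Set against the rest of 28S, the log2 ratios of eCLIP to Input in the 4 stretches were 0.35 ± 0.131, -0.83 ± 0.321, 0.76 ± 0.235 and -1.16 ± 0.120 (SD, n = 2). Each had the same sign in both eCLIP libraries. The third stretch, 28.7% of the length of ES27L, held 43.7% and 52.7% of its eCLIP depth and 27.0% of its Input depth. The fourth, 28.2% of the length, held 12.6% and 13.5% of eCLIP depth and 27.7% of Input depth.

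The same high, low, high, low pattern of eCLIP depth, though not of every ratio to Input, held in 4 blocks of equal length. The deepest part was not the same in replicate 1: the first of the stretches (4678 reads against 4491 in the third), but the third of the blocks. Their edges are set by length and not by depth, but were chosen with earlier results of these data known. In eCLIP replicate 1 the blocks of 174 nt held, from 5′ to 3′, 29.8%, 22.4%, 36.5% and 11.3% of the segment's depth. In replicate 2 they held 25.7%, 16.2%, 46.4% and 11.8%, and in Input 27.5%, 25.6%, 21.2% and 25.7%. The third block, 3237 to 3410, was the deepest in both eCLIP libraries and the shallowest in Input. Its share of 28S depth was higher in eCLIP than in Input by 0.69 in replicate 1 and 1.09 in replicate 2 on the log2 scale (0.89 ± 0.284, SD, n = 2). The fourth block, from 3411 to the end, had log2 ratios of -1.28 and -1.16 (-1.22 ± 0.080). The second had -0.28 and -0.70, and the first, with 0.02 and -0.13, had opposite signs in the 2 libraries.

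**Figure D2:**
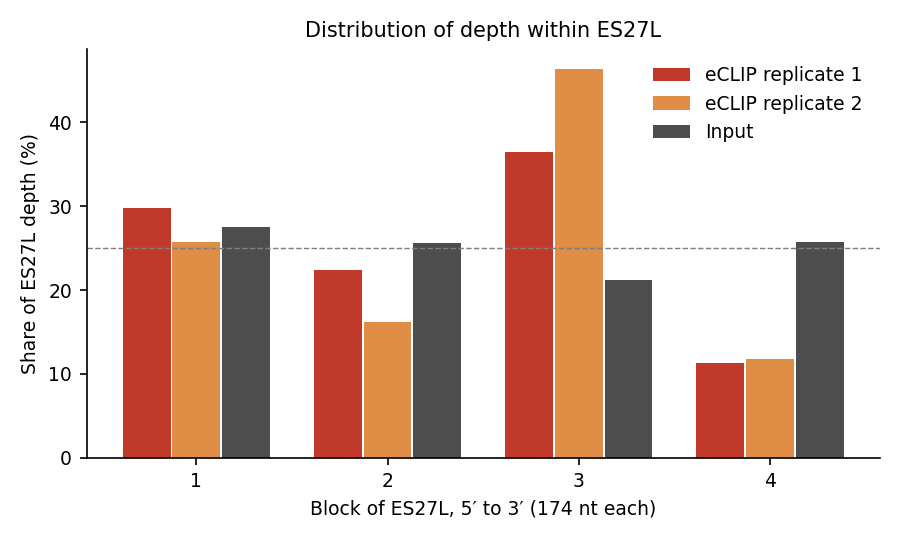
Share of the summed ES27L depth, in percent, that lies in each of 4 blocks of 174 nt from 5′ to 3′, with 1 bar per library and a dashed line at the even share of 25%. The third block holds 36.5% and 46.4% in eCLIP against 21.2% in Input, and the fourth holds 11.3% and 11.8% against 25.7%.

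The tall peak lay 3′ of the middle of the segment. Its summit was at position 3246 with 7373 reads in eCLIP replicate 1 and at position 3257 with 4329 reads in replicate 2, 11 nt apart. Depth stayed at or above 50% of the summit from 3217 to 3301 in replicate 1 (85 nt) and from 3224 to 3301 in replicate 2 (78 nt). Input had no such peak there: its mean from 3239 to 3288 was 6250 reads, 1.01 times the mean of the other 28S positions. In the same window replicate 1 had a mean of 6902 reads, 2.06 times its mean elsewhere on 28S, and replicate 2 had 4185, or 3.13 times. Among the 102 windows of 28S this one ranked 4 in depth in each eCLIP library and 44 in Input.

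The flanks of the peak lay about a read's length apart. Increases between neighbouring positions added up to 6021 reads in replicate 1 and 3837 in replicate 2 over positions 3189 to 3238, against 682 in Input. Over the 50 positions that lie 75 nt further on, 3264 to 3313, decreases added up to 3615, 2650 and 716 reads. The largest single increases of replicate 2 on the segment were those into positions 3226, 3224 and 3225, of 354, 268 and 264 reads. Replicate 1 had increases of 440, 385 and 440 reads at the same 3 positions, and Input had changes of -112, 47 and 18. Apart from the drop at position 3332, the largest decreases of replicate 2 were those into 3291 and 3301, of -272 and -248 reads, where replicate 1 had -438 and -194 and Input -60 and 19. Position 3301 lies 75 nt after 3226. Within ES27L alone, increases were best matched by decreases 75 nt later in every library, among distances of 20 to 200 nt (correlation across 620 positions 0.309, 0.582 and 0.393, a description). In replicate 1 a distance of 171 nt came close, with 0.299, and in Input the same distance was second with 0.238. The increases into position 3161 (730 and 1152 reads) and the changes into 3332 (-1240 and -710), at dips described below, lie that far apart. Their part in these correlations was not tested.

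The smaller peak lay near the 5′ end. Its summit was at position 2949 with 6211 reads in replicate 1 and at 2956 with 2165 in replicate 2. Depth was at or above 50% of the summit from 2910 to 2999 and from 2900 to 2998. The window from 2939 to 2988 averaged 5444 and 1849 reads in the eCLIP libraries and 5906 in Input, or 1.62, 1.38 and 0.958 times the mean of the other 28S positions. Both eCLIP libraries stood above Input on this scale.

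A shoulder followed the tall peak. Depth had a further local top within the window from 3339 to 3388, of 4283 reads at position 3362 in replicate 1, 1804 at 3361 in replicate 2 and 4015 at 3362 in Input. Mean depths in this window were 3218, 1332 and 3394 reads. They were close to the library means elsewhere on 28S in eCLIP (0.958 and 0.998 times), while Input had 0.551 times its mean and ranked 100 of 102 windows. The ratio in this window thus combined average eCLIP depth with low Input depth.

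The stretch between the peaks was shallow in eCLIP. The window from 3039 to 3088 had 1621 and 646 reads in eCLIP and 6142 in Input, which was 0.483, 0.484 and 0.997 times the mean elsewhere on 28S. From 3089 to 3188 both libraries had a low local top, of 3169 reads at position 3123 in replicate 1 and of 693 at 3125 in replicate 2. The window from 3089 to 3138 had 0.789 times the mean elsewhere on 28S in replicate 1 and 0.455 times in replicate 2. The lowest value of replicate 2 on the segment, 217 reads, was at position 3193, just before the tall peak.

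The last 196 nt were low throughout in eCLIP. From 3389 to the end, depth stayed between 861 and 1777 reads in replicate 1 and between 276 and 787 in replicate 2, or on average 0.392 and 0.441 times the mean elsewhere on 28S. Input had 0.931 times its mean. The window from 3439 to 3488 was the lowest of them, with 1203 and 400 reads in eCLIP against 6099 in Input. The last window, which starts at 3539, had 1427 and 686 reads against 6196.

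Neither edge of the segment coincided with a large step in eCLIP depth, while Input fell from 6056 to 5864 reads at the 3′ edge. At the 5′ edge, position 2888 and the next had 4129 and 4025 reads in replicate 1, 1099 and 1107 in replicate 2, and 6791 and 6755 in Input. At the 3′ edge, the last base of the segment and position 3585 had 1777 and 1771, 737 and 736, and 6056 and 5864 reads. The window just outside the 5′ edge had 1.29 and 0.844 times the mean of the other 28S positions in eCLIP, and the first window inside had 1.16 and 1.07 times. Just outside the 3′ edge it had 0.442 and 0.390 times, and the last window inside had 0.425 and 0.514 times. The low eCLIP depth at the end of ES27L thus continued into the sequence that follows.

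Position by position, both eCLIP libraries lay below Input on 60.8% of ES27L (423 positions), above it on 30.9% (215) and on opposite sides of it on 8.33%, each library divided by its mean elsewhere on 28S. Of the other 28S positions, 48.2% were below, 33.4% above and 18.4% split. The positions above Input formed 3 runs, from 2923 to 2979, 3218 to 3302 and 3307 to 3379. In the second run, which holds the tall peak, mean relative depth was 1.89 and 2.77 in eCLIP and 1.04 in Input. The longest run below Input was the last one, from 3390 to the end, with 0.392, 0.441 and 0.933.

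Whether single windows differed between eCLIP and Input was tested in 147 windows of at most 50 nt over all 4 rRNAs, with 14 on ES27L. Windows of 28S were laid from the first base of the segment, so that none crosses its edges. With TMM scaling, which takes most windows as unchanged, edgeR's quasi-likelihood test called 1 of the 14 ES27L windows higher in eCLIP at an adjusted p under 0.05, where it called 7.48% of all 147 windows higher. It called 0 lower, where 35.4% of all windows were lower, most of them on 18S. Of the 102 windows of 28S, 10.8% were higher and 12.7% lower. Without adjustment, 4 of the 14 had an edgeR p under 0.05, with both directions counted together. No such count was made over all windows, so no result is read from it. With DESeq2's Wald test 6 of the 14 were higher, against 34.7% of all windows, and 1 was lower, against 40.1%. DESeq2 thus called most windows on the same TMM scaling, so the premise of TMM may not hold here. Of the 102 windows of 28S, DESeq2 called 50 higher and 20 lower. The called share of ES27L windows was thus near that of all windows in the higher direction. In the lower direction it was below that of all windows, whose lower calls with edgeR lay mostly on 18S. Whether it differed from the share on 28S was not tested.

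The window called by edgeR was 3339 to 3388, the shoulder, with log2 ratios of 1.45 and 1.91 in the 2 libraries (edgeR log2 fold change 1.70, adjusted p = 0.000309). With library totals it no longer passed (1.24, edgeR adjusted p = 0.0812), nor did it when scaled to the rest of 28S. The tall peak, 3239 to 3288, had the highest fold change of the segment, with log2 ratios of 1.67 and 2.68 (edgeR log2 fold change 2.26), and was not called (edgeR adjusted p = 0.264). DESeq2 called it (Wald test adjusted p = 0.0166). In edgeR the p came from a dispersion trend over all windows and not from a window's own spread. The edgeR call therefore does not rank the shoulder and the tall peak by how alike the replicates were. At 2939 to 2988, the smaller peak, the ratios were 1.41 and 1.59 (edgeR log2 fold change 1.50, adjusted p = 0.0767). At 3289 to 3338 they were 1.05 and 1.72 (edgeR log2 fold change 1.43, adjusted p = 0.0507).

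Among the lowest windows with TMM, 3439 to 3488 was the only one of ES27L below 0 in both libraries (-0.82 and -0.67, edgeR log2 fold change -0.74, adjusted p = 0.095). At 3039 to 3088 the log2 ratios were -0.40 and 0.01, and in the last window they were -0.59 and 0.09 (edgeR adjusted p = 0.682 and 0.626). The first window, which ends at 2938, had 0.74 and 1.02 (edgeR adjusted p = 0.13). With this scaling 6 ES27L windows lay above 0 in both libraries, 1 below and 7 on opposite sides. The median edgeR log2 fold change was 0.12 for the 14 windows of ES27L, 0.74 for the other 88 of 28S and -0.14 for all windows.

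Scaling to the 28S positions outside the segment compared ES27L with the rest of its own rRNA. On that scale the median edgeR log2 fold change was -0.69 for the ES27L windows and -0.09 for the other windows of 28S. Without eCLIP replicate 1 the median log2 ratio of the ES27L windows was -0.85, and without replicate 2 it was -0.32. Both libraries lay above 0 in 5 of the 14 windows and below 0 in 8. No ES27L window passed edgeR's test in either direction, where 0.0% of all windows were higher and 37.4% lower. Of the 102 windows of 28S, 0 were higher and 14.7% lower. Without adjustment, 1 of the 14 had an edgeR p under 0.05, 3439 to 3488, which was lower in eCLIP. That count was not made over all windows either, and no result is read from it. DESeq2's Wald test called 1 of the 14 higher and 1 lower, where it called 5 of all 147 windows higher and 62 lower. Of the 102 windows of 28S it called 5 higher and 21 lower. The window from 3239 to 3288 had log2 ratios of 1.02 and 1.63 (edgeR log2 fold change 1.36, adjusted p = 0.168). The window from 3439 to 3488 had -1.47 and -1.72 (edgeR log2 fold change -1.59, adjusted p = 0.0568). Both were called by DESeq2 (adjusted p = 0.0323 and 0.0079).

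**Figure D3:**
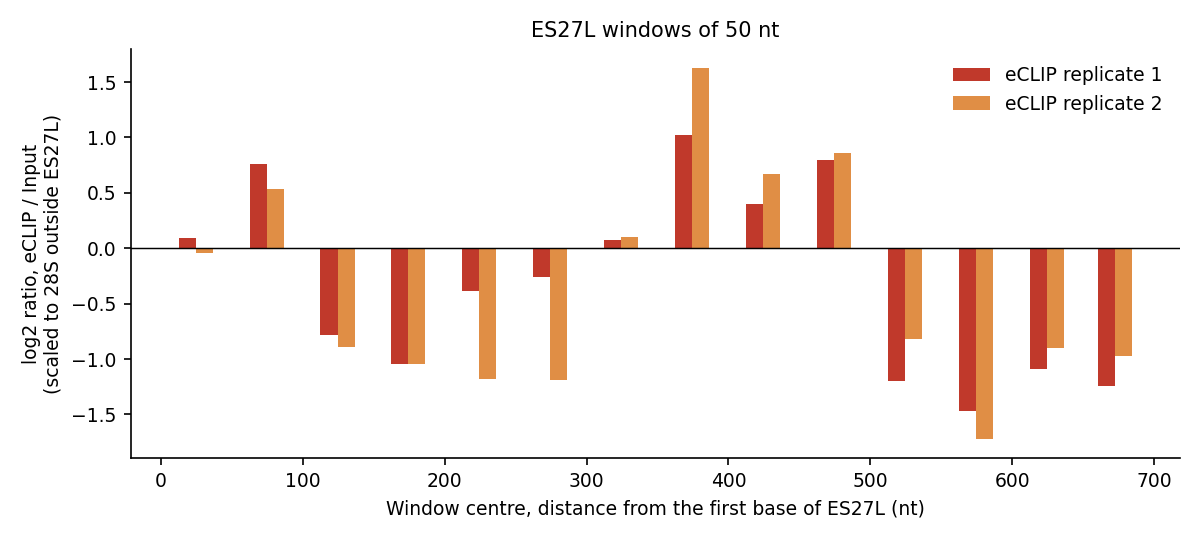
Log2 ratio of eCLIP to Input in each of the 14 ES27L windows, scaled to the 28S positions outside the segment, with 1 bar per eCLIP library, against the distance of the window's centre from the first base of ES27L in nt. Bars of both libraries point up at the 2 peaks and down between them and over the last 4 windows, with the highest values, 1.02 and 1.63, at the tall peak.

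Both scalings leave 1 residual degree of freedom, and the test takes the spread of Input to be that of the 2 eCLIP libraries. Under either scaling edgeR set its prior degrees of freedom to infinity, so the dispersion came from the trend over all windows and a window's own spread did not enter its p. The labels do not say whether those came from separate cultures. The p-values therefore reflect no more than the spread of these 2 libraries, which may be technical.

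The eCLIP libraries had like profiles along the segment, while each was only weakly correlated with Input. Across the 14 windows, log2 depth in replicate 1 and replicate 2 gave a Pearson's r of 0.899 and a Spearman's rho of 0.824, given as a description because neighbouring windows share reads. Between eCLIP and Input, r was 0.060 and rho 0.240 for replicate 1, and 0.052 and 0.253 for replicate 2. Across the other 88 windows of 28S, r was 0.933 between the eCLIP libraries, and 0.339 and 0.225 between each of them and Input, with rho of 0.907, 0.246 and 0.070.

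**Figure D4:**
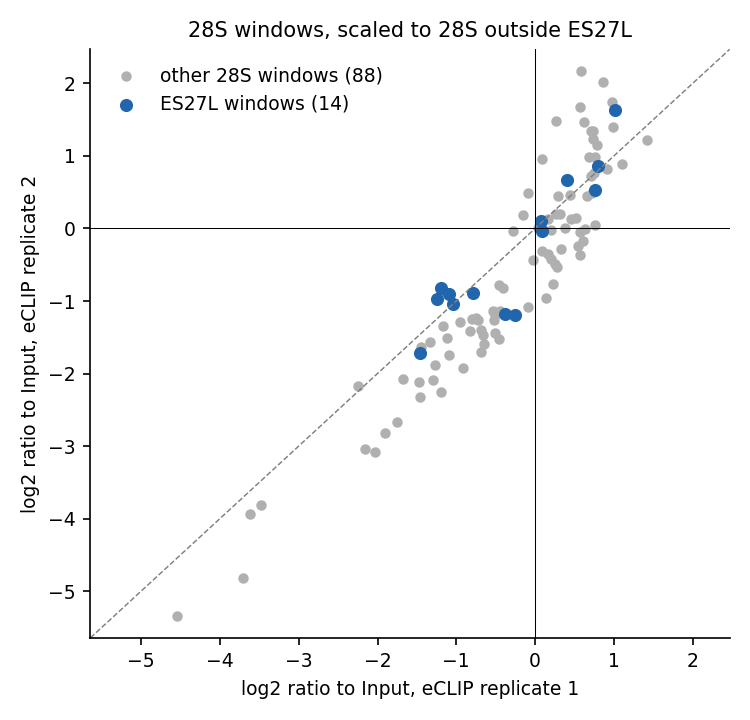
Log2 ratio to Input in eCLIP replicate 1 (x axis) against replicate 2 (y axis) for the 14 ES27L windows (blue) and the other 88 windows of 28S (grey), scaled to the 28S positions outside the segment, with the line of equal values dashed. The ES27L windows lie within the range of the other windows, from -1.59 to 1.36 in edgeR log2 fold change against -4.89 to 1.59, and both axes share the same Input.

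ES27L lay between a stretch of 28S with much eCLIP depth and a stretch with little. The 696 nt before it, 2193 to 2888, averaged 5452 and 3266 reads in the eCLIP libraries and 6419 in Input, and the 696 nt after it, 3585 to 4280, had 2204 and 550 against 6228. The log2 ratios of their shares of 28S depth were 0.65 and 1.24 before the segment and -0.61 and -1.29 after it, where ES27L had -0.09 and -0.04. Of all 4375 stretches of this length along 28S, which overlap, 46.8% in replicate 1 and 51.9% in replicate 2 had a lower ratio than ES27L. The segment thus stood in the middle of 28S in its ratio to Input.

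Short dips in depth recurred at fixed positions of ES27L. A dip was taken as a run of 1 to 3 positions below 90% of the depth on both sides, a definition chosen after the values were seen. Replicate 1 had 8 such dips on all of 28S and replicate 2 had 9. In each library 5 of them lay on ES27L, at the same 5 places, which is 7.18 per 1000 nt against 0.686 and 0.914 elsewhere on 28S. Input had 6 on 28S, of which 1 lay on ES27L. These counts carry no test.

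At position 3160, depth went from 2416 to 1461 and back to 2191 reads in replicate 1, from 519 to 296 and 456 in replicate 2, and from 3624 to 2515 and 3667 in Input. All 3 libraries thus lost and regained a similar part of their depth within 1 nt: the dip stood at 63.4%, 60.7% and 69.0% of the mean of its neighbours. Position 3332 had 75.6%, 73.7% and 87.4%, and the decrease into it, of 1240 reads, was the largest single change of depth on 28S in replicate 1. Positions 3504 to 3506 had 64.5%, 68.2% and 76.1%. These 3 dips were 172 nt apart, both from 3160 to 3332 and from 3332 to 3504. The remaining dips, at 3051 to 3052 and at 3566, were shallow in eCLIP (79.5% to 86.4%) and nearly absent from Input (98.4% and 96.6%).

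A step of another kind occurred at position 3172. Depth went from 2059 to 1454 reads in replicate 1 and from 422 to 299 in replicate 2, changes of -29.4% and -29.1%. At position 3182 it was still at 1470 and 277 reads. Input went from 4263 to 4331 at the step and had 6291 reads at position 3182. Input in turn had an increase of 763 reads into position 3405 that eCLIP did not share (58 and 23 reads).

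**Figure D5:**
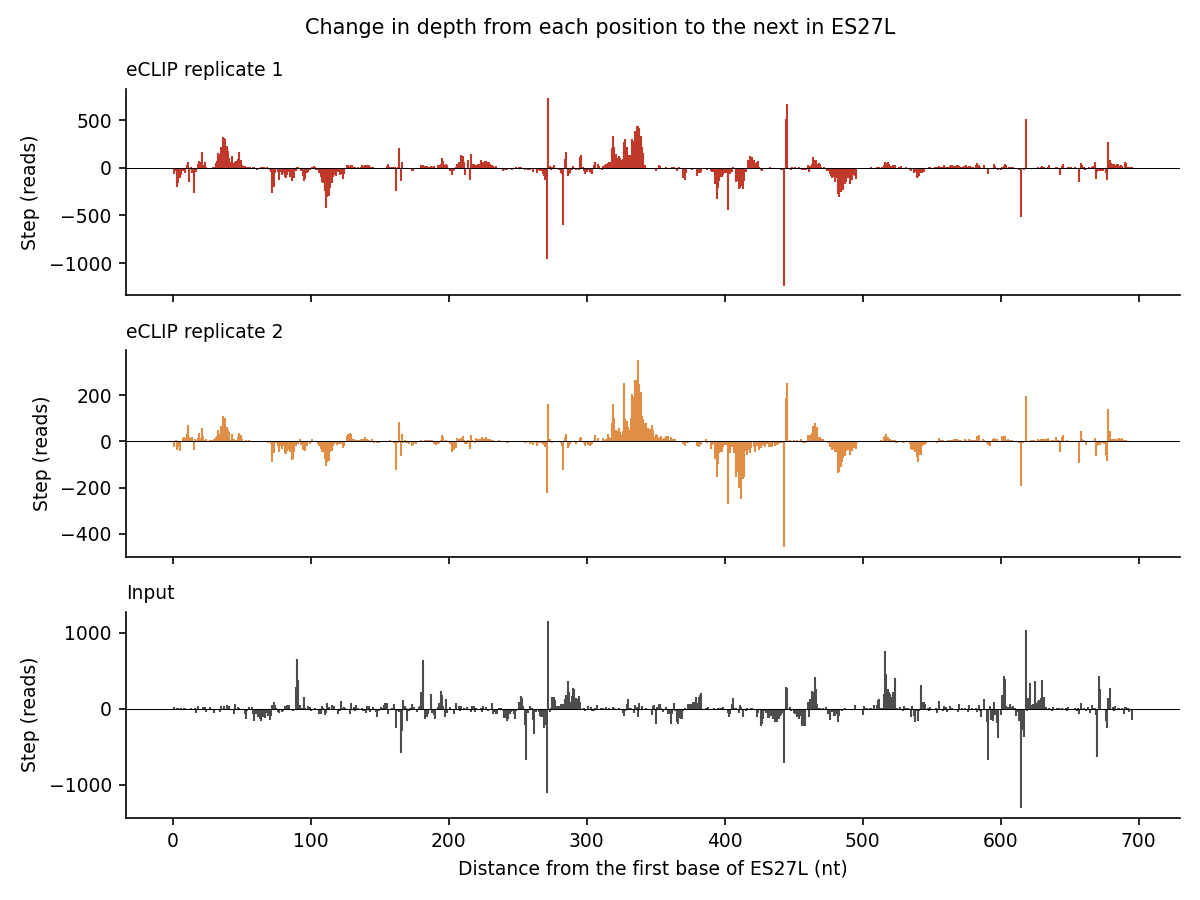
Change in depth, in reads, from each position of ES27L to the next in the eCLIP libraries and Input (top to bottom, each panel with its own scale), against distance from the first base of the segment in nt. Paired spikes down and up mark the dips at positions 3160, 3332 and 3504 to 3506 in all 3 panels, and the broad block of increases before the tall peak, summing to 6021 and 3837 reads, appears in both eCLIP libraries only.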

How the data were processed

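The 3 libraries were 2 eCLIP and 1 Input. The authors deposited 1 table of counts, a whole number for each rRNA position and library, without scaling, per the file headers. STAR and hg19 appear in the submitters' processing notes, with no role or version. The sources used here do not state how depth was made or whether duplicates were removed. The IP columns were matched to the eCLIP samples by their number, and every value column was used. Summed depth was 17574237, 6930845 and 42783485 in eCLIP replicates 1 and 2 and Input.

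Depth was summed in windows of 50 nt (the last of ES27L has 46) and tested with edgeR 4.0.16 (R 4.3.3, TMM or the depth of 28S outside ES27L as library size, filterByExpr, which removed 0 windows, Benjamini-Hochberg at 0.05) or DESeq2 1.42.0. A read is counted up to 50 times in a window. Log2 ratios used a pseudocount of 1 count. Windows named were those past the test, the 3 highest and 3 lowest, the deepest, and those at the edges. Window 3289 to 3338 and the steps and stretches were named after their values were seen. The segment and all rules were chosen with earlier results of these data known.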

Additional observations from a re-analysis of the deposited data

How the results depend on the processing

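All alternatives were chosen with earlier results known, and why values moved was not tested, except where the alternative's construction shows it. The log2 ratio of the ES27L share, -0.06, was -0.18 at positions with Input under 7000 reads, 0.0027 without the 1% deepest positions and -0.37 with medians. Scaled to 5S, to all 4 rRNAs or by TMM, it was 0.55, 0.34 and 0.78. By construction these scalings bring in rRNAs other than 28S, and the last 2 include 28S as well. For the first block it was -0.17 at positions with Input under 7000 reads, 0.21 with medians and -0.94 with 100 nt trimmed from each edge, and for the fourth block -1.33, -0.80 and -0.80. Trimming moves the blocks to other bases. The ratio of mean depth to the other 28S positions was, for eCLIP replicate 1, 0.907 without the deepest positions, 0.682 with medians and 0.867 trimmed. For replicate 2 it was 0.853 with Input under 7000 reads, 1.0005 without the deepest positions, 0.815 with medians and 0.942 trimmed. For Input it was 1.003 with Input under 7000 reads, 1.02 with medians and 0.929 trimmed.

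With TMM and edgeR, the 1 higher window of 14 became 3 of 28 at a width of 25 nt (all windows: 22 of 291). It became 2 of 13 when laid from base 1 (all windows: 5 of 147) and 3 with the middle position (20 of 147). With DESeq2's test there were 6 (51 of 147), with library totals 0 (0 of 147) and with the segment as 1 window 0 (1 of all 14 windows). Lower windows, 0, became 1 with 25 nt (100 of 291) and 1 with DESeq2 (59 of 147). Scaled to the rest of 28S, higher windows, 0, became 1 with DESeq2 (5 of 147). Lower windows on that scale, 0, became 1 with 25 nt (104 of 291) and 1 with DESeq2 (62 of 147). They became 1 with depth divided by 75 (56 of 147) and 2 with the middle position (57 of 147). The median log2 fold change with TMM, 0.12, was 0.34 with 25 nt, 0.52 with the segment as 1 window, 0.25 from base 1, 0.27 with the middle position, -0.28 with library totals, 0.27 with DESeq2 size factors and -0.10 with 5S, and 0.20 to 0.32 with 1 replicate left out. Scaled to the rest of 28S, -0.69 became -0.072 with the segment as 1 window, and ranged from -0.85 to -0.32 with 1 replicate left out. Of 28 tests of named windows under alternatives, 22 kept direction and call, 4 gained a call with DESeq2, 2 lost it and 0 reversed. A pseudocount of 50, which has no test, reversed 0 of 7. Window counts could not be recomputed with a replicate left out, which leaves no residual degrees of freedom. No paired analysis was possible because the only Input library carries no replicate number. Depth divided by 75 was 11383 or more on the segment in each library. A ceiling on recorded depth, if there was one, would limit the top of the tall peak. It would also limit Input, whose depth came nearest to 8000 reads (7986 at most), and with it the ratios to Input. Whether there was one was not tested.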
